A study of Mus musculus with 6 samples.

Results

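Genes that mark the club, secretory and ciliated cells of the airway lining were described in lung metastases of mouse mammary tumours. These were Scgb1a1, Scgb3a1, Scgb3a2, Cyp2f2, Cbr2, Aldh1a1, Foxj1, Tppp3 and Hp, a set of 9 of the 12393 genes that the array names, and they were taken by symbol, with no measured value in the rule. Each had 1 probe set annotated with that symbol alone, so no choice between probe sets arose. RNA of 6 metastases was measured on Affymetrix mouse arrays, 1 array for each. All came from FVB mice with tumours of the MMTV-Myc model, in which the promoter of mouse mammary tumour virus drives Myc in the mammary epithelium. In 1 group of 3, labelled Myc E2F2 KO, the mice lacked E2F2; in the other group of 3, labelled Myc E2F3 Het, they carried 1 disrupted copy of E2F3. Both groups therefore share the Myc transgene, and no metastasis with intact E2F genes was analysed here. The 3 Het titles share 1 number and carry the metastasis numbers 2, 1 and 3 for replicates 1, 2 and 3, so they probably come from a single mouse. The 3 KO titles carry different numbers. Replicate numbers below only name the arrays, in the order of deposit.

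Club cells are secretory cells of the conducting airways. They release secretoglobins, small proteins that include the abundant Scgb1a1, and they carry enzymes such as Cyp2f2 that oxidise inhaled chemicals. Ciliated cells stand beside them and beat the mucus layer out of the lung, and Foxj1 is the transcription factor that switches on their motile cilia. Several of the genes are not particular to the airway: Aldh1a1 is also used as a marker of mammary stem, progenitor and tumour cells, Scgb3a1 is also made by mammary luminal epithelium, and Hp is made in many tissues. In tissue RNA of this kind, fewer airway cells and less RNA per airway cell cannot be told apart.

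The authors scaled the arrays to a common level, with a trimmed mean of 500.2 on each and median signals from 137.6 to 164.8. One array, Het replicate 1, had higher ratios of 3′ to 5′ signal, at 2.37 for actin against 1.48 to 1.73 on the other arrays, and at 11.8 for the transferrin receptor against 3.25 to 5.15. Both tissues in the label were seen on the arrays. The milk protein gene Csn3 had signals of 15725 to 21105, and Sftpc, the surfactant protein of alveolar type 2 cells, had 5981 to 18596, over the 6 arrays. Of the 9 airway genes, 8 were bright enough to be tested. Foxj1 was among the dimmest 40% of probe sets, with a mean of 5.69 on the log2(signal + 16) scale against 6.56 at the filter, so its values are given without a place in the main test. In that test the 3 KO arrays were set against a single Het sample, the average of the 3 Het arrays. Every SE and p below comes from it unless stated, whereas means and SDs of the signal are over 3 arrays in each group.

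Scgb1a1, the main secretory product of club cells, was among the brightest probe sets on every array. Its signal was 16641, 4054 and 10389 in KO replicates 1, 2 and 3, and 17210, 12716 and 14125 in Het replicates 1, 2 and 3. KO replicate 2 stood low, and the groups overlapped because KO replicate 1 was nearly as high as the highest Het array. Even in KO replicate 2, the signal exceeded that of 96.6% of probe sets, and in Het replicate 1 it exceeded 99.9%. The KO arrays averaged 10361 ± 6294 and the Het arrays 14684 ± 2299 (SD, n = 3 arrays in each group). On the log2 scale KO lay at -0.71 relative to Het (SE 0.73; limma adjusted p = 0.9999), and at -0.15 without KO replicate 2. The brightest probe sets of these arrays reached 22205 to 26149, so the upper Scgb1a1 values lie near the top of the measured range.

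Scgb3a2, a secretoglobin of the same family made by club cells, varied more widely. Its signal was 4130.1, 427.3 and 978.4 in the KO replicates and 2554, 1801 and 1505 in the Het replicates. KO replicate 1 was the highest of the 6 metastases and KO replicates 2 and 3 the lowest, with the Het metastases between them. The highest value was 9.67 times the lowest, and within the Het group the ratio was 1.70. The KO arrays averaged 1845 ± 1998 and the Het arrays 1953 ± 541 (SD, n = 3 in each group; log2 difference -0.65, SE 1.16; limma adjusted p = 0.9999). The sign of this difference rested on KO replicate 2, since without it the value was 0.08.

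Scgb3a1, the remaining secretoglobin of the set, is made by secretory cells of the larger airways. Its signal was 2348, 192.2 and 195.5 in the KO replicates and 238.5, 746.1 and 232.5 in the Het replicates. KO replicate 1 alone was at 3.15 times the next highest metastasis, Het replicate 2, and the other 4 lay close together. Its range over the 6 arrays was 3.50 on the log2 scale, wider than that of 99.2% of the 7957 genes tested. Means were 912 ± 1244 over KO arrays and 406 ± 295 over Het arrays (SD, n = 3 in each group; log2 difference 0.37, SE 1.43; limma adjusted p = 0.9999). Without KO replicate 1 the difference turned to -0.79.

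**Figure D1:**
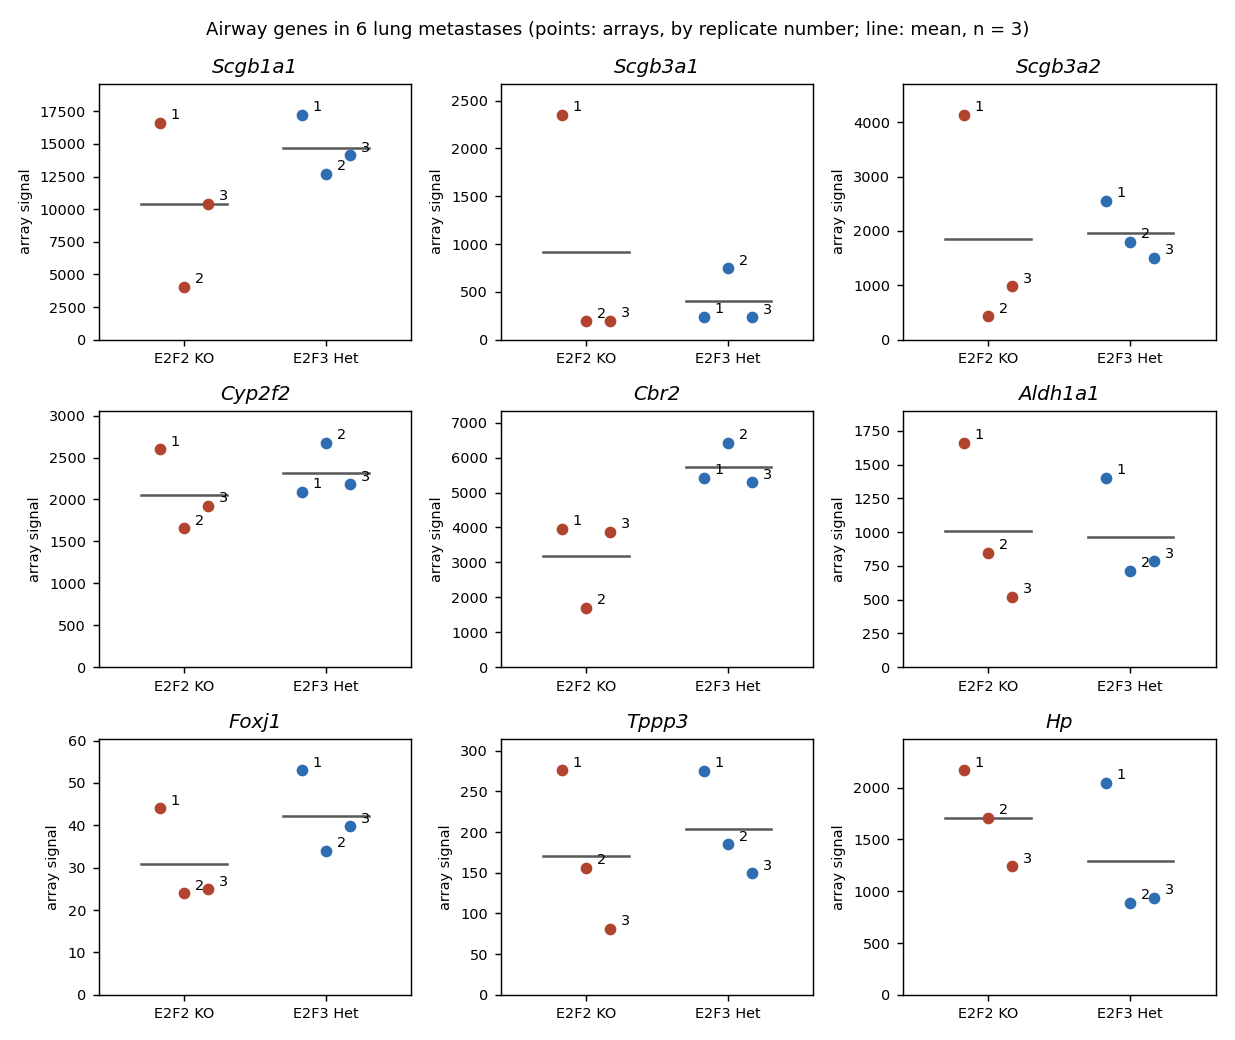
Array signal (linear scale, from 0) of the 9 airway genes in each metastasis, with the replicate number beside each point and the mean of 3 arrays as a line. Cbr2 is the 1 gene whose KO and Het points do not overlap. KO replicate 2 is the lowest point for all 5 genes from Scgb1a1 to Cbr2, for Scgb3a1 only just below KO replicate 3.

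Cyp2f2, the club cell cytochrome P450 that activates naphthalene, was the steadiest of the 9 genes. Its signal was 2597, 1656 and 1923 in the KO replicates and 2089.6, 2677 and 2178 in the Het replicates. The highest metastasis had 1.62 times the signal of the lowest, against 4.25 times for Scgb1a1 and 12.2 times for Scgb3a1. The highest Scgb1a1 value in that ratio lies near the top of the measured range. Means were 2059 ± 485 over KO arrays and 2315 ± 317 over Het arrays (SD, n = 3 in each group; log2 difference -0.18, SE 0.30; limma adjusted p = 0.9999). Its range of 0.69 on the log2 scale was wider than that of 56.8% of genes.

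Cbr2, a carbonyl reductase abundant in mouse lung, was the 1 gene whose groups did not overlap. Its signal was 3969, 1697 and 3875 in the KO replicates and 5428, 6428 and 5297 in the Het replicates. The lowest Het metastasis was at 1.33 times the highest KO metastasis. The KO arrays averaged 3180.3 ± 1285 and the Het arrays 5717 ± 619 (SD, n = 3 in each group; log2 difference -0.94, SE 0.51; limma adjusted p = 0.9999). Without KO replicate 2 the difference was -0.54. With each array counted as a sample the SE was 0.31, the unadjusted p was 0.016 and the limma adjusted p was 0.396, so the difference did not pass. With 3 arrays in each group, the smallest p of an exact two-sided permutation test is 0.1. Over all genes tested, the arrays did not overlap with KO lower in 10.5% and with KO higher in 5.83%, so 1 of 8 genes is near the background.

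Aldh1a1, which makes retinoic acid from retinaldehyde, differed between the groups by far less than its spread within them. Its signal was 1663, 846.5 and 523.4 in the KO replicates and 1403, 714.6 and 784.9 in the Het replicates. Replicate 1 of each group was high, and the other 4 metastases were at or below 846.5. The KO arrays averaged 1011 ± 587 and the Het arrays 968 ± 379 (SD, n = 3 in each group). On the log2 scale the difference was -0.03 (SE 0.61; limma adjusted p = 0.9999), and its sign turned when KO replicate 2 (0.02), KO replicate 3 (0.36) or Het replicate 1 (0.27) was left out.

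The promoters of Scgb3a1, Cyp2f2 and Cbr2 are shown because these genes had the widest range, the narrowest range and the 1 separation of the groups. They come from RefSeq on GRCm38.p6 and run from 250 bases before to 50 bases after the start; 4 of the 9 genes had an entry. Capitals mark matches, on either strand, to CAAGTG (a core of NKX2 factors that is also an E-box), TGTTTAC and TGTTTGC (forkhead factors), TTGCNNAA (C/EBP factors) and GTTGCNA (RFX factors).
Scgb3a1, chr11:49663345-49663644, plus strand: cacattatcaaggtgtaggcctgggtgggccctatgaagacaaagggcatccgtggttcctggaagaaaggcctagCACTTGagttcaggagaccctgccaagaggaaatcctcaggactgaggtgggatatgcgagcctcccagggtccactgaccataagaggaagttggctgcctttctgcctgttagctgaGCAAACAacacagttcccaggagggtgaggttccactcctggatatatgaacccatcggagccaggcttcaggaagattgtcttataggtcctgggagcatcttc
Cyp2f2, chr7:27119705-27120004, plus strand: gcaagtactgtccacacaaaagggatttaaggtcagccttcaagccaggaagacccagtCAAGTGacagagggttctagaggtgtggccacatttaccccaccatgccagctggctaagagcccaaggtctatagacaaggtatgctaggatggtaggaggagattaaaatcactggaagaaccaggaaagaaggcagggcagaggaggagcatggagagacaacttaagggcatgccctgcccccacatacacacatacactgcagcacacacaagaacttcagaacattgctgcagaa
Cbr2, chr11:120731972-120732271, minus strand: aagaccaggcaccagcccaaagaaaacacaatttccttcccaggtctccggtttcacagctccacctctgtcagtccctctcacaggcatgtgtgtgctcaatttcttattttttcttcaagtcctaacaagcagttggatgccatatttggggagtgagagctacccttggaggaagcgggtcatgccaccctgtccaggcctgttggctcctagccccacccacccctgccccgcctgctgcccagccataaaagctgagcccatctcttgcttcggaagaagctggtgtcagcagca
CAAGTG or its complement occurs in 13.6% of the 32851 promoters of the table, TGTTTAC in 3.65%, TGTTTGC in 5.07%, TTGCNNAA in 10.8% and GTTGCNA in 10.4%. Scgb3a1 holds the NKX2 core 174 bases and the second forkhead word 55 bases before its start, Cyp2f2 holds the NKX2 core 191 bases before its start, and these letters are not in the Cbr2 window.

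Of the markers of ciliated cells, Tppp3 was in the middle of the signal range and Foxj1 was below the filter. Tppp3, a tubulin polymerisation promoting protein of ciliated cells, had signals of 276, 156.5 and 81.1 in the KO replicates and 275.7, 184.9 and 149.6 in the Het replicates. Replicate 1 of each group was high and KO replicate 3 was lowest. The signal of KO replicate 1 was 3.40 times that of KO replicate 3. The KO arrays averaged 171 ± 98.3 and the Het arrays 203 ± 65.1 (SD, n = 3 in each group; log2 difference -0.33, SE 0.61; limma adjusted p = 0.9999), and the difference was 0.07 without KO replicate 3. Foxj1 had signals of 44.0, 24.0 and 24.9 in the KO replicates and 53.0, 34.0 and 39.8 in the Het replicates. Replicate 1 was again the highest of each group, and KO replicates 2 and 3 lay below all Het arrays. Whether signals of this size stood above background is not known, because detection calls were not used here. When dim probe sets were kept in the fit, the Foxj1 difference was -0.32 (SE 0.40; limma adjusted p = 0.9999).

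Hp encodes haptoglobin, which binds free haemoglobin and is made by liver, lung epithelium and myeloid cells. Its signal was 2168, 1706 and 1240.2 in the KO replicates and 2048, 886 and 939.7 in the Het replicates. Het replicate 1 lay among the high KO arrays, whereas Het replicates 2 and 3 were the lowest of all. Of all genes, 17.7% had their lowest value in Het replicate 2, as Hp did. Mean signals were 1705 ± 464 over KO arrays and 1291 ± 656 over Het arrays (SD, n = 3 in each group; log2 difference 0.47, SE 0.34; limma adjusted p = 0.9999). Hp was the 1 gene of the set with a larger SD among Het than among KO arrays. Without Het replicate 1 the difference was 0.85 and without Het replicate 2 it was 0.26.

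Set side by side, 7 of the 9 genes had a lower mean log2 signal in KO metastases (for Aldh1a1 the linear means, given above, were in the other order) and 2, Scgb3a1 and Hp, a higher one. Among the 8 tested, 6 were lower, with a median log2 difference of -0.26, beside 56.6% of all genes lower and a median of -0.04. Leaving out KO replicate 1 gave a median of -0.76, KO replicate 2 one of -0.01 and KO replicate 3 one of -0.04. None of the 8 passed. When limma compared the KO samples with the mean of the Het arrays, 0% of the 13575 probe sets had an adjusted p under 0.05, and 2.22% had an unadjusted p under 0.05, none of them from these genes. With each array as a sample, 0% passed and 10.3% had an unadjusted p under 0.05, including Cbr2. For 8 of the 9 genes the SD of the log2 values was larger among the KO metastases, which was so for 62.5% of all genes. The KO metastases have different title numbers and the Het metastases share 1, so genotype and the animal of origin cannot be told apart in this spread. Without Het replicate 1, 6 of the 9 genes had a lower mean log2 signal in KO metastases and all 9 had the larger SD there, beside 68.8% of all genes for the SD.

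**Figure D2:**
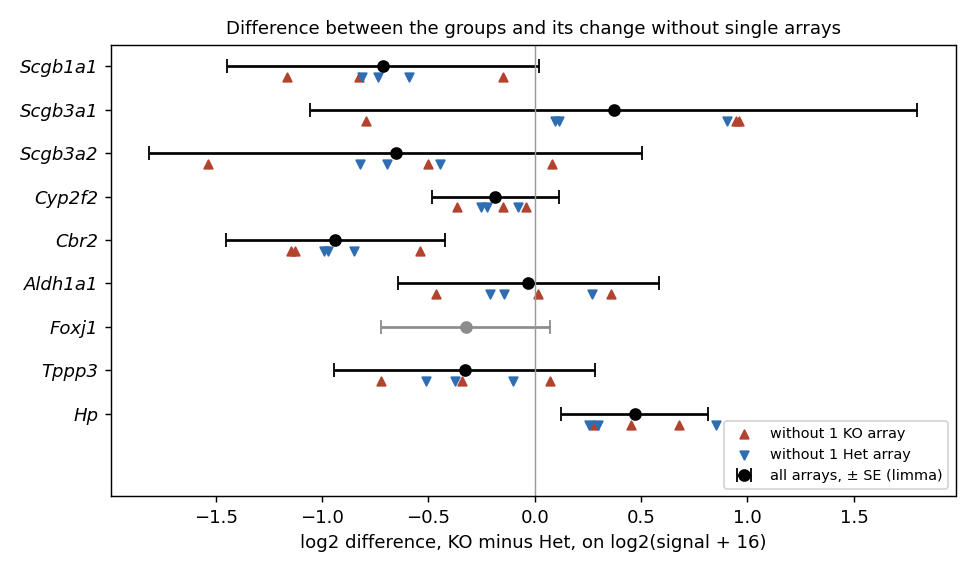
Log2 difference of KO minus Het for the 9 genes (circles, ± SE of the limma fit; grey for Foxj1, taken from the fit with no filter) with the values after leaving out 1 KO array (triangles up) or 1 Het array (triangles down). Cbr2 stays between -0.54 and -1.15, whereas Scgb3a1, Scgb3a2, Aldh1a1 and Tppp3 cross 0.

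The single metastases were also compared, gene by gene. All 5 genes most tied to club and secretory cells (Scgb1a1, Scgb3a1, Scgb3a2, Cyp2f2 and Cbr2) had their lowest value in KO replicate 2. With Foxj1, which was below the filter, this made 6 of 9. For Scgb3a1 (192.2 against 195.5) and Foxj1 (24.0 against 24.9), KO replicate 3 was almost as low. Of all genes tested, which leave out dim genes such as Foxj1, 15.9% had their lowest value in KO replicate 2. The 18 further club and secretory genes described below did not share this: 2 were lowest in KO replicate 2 and 8 in KO replicate 3. Centred on the average of all arrays, the 5 genes stood at 0.94, -1.18 and -0.39 (log2) in the KO replicates and 0.20, 0.45 and -0.01 in the Het replicates. The means in KO replicate 1 and Het replicate 2 lean on Scgb3a1, the highest of the 5 genes in both, at 2.51 and 0.88. In KO replicate 1 the others ran from -0.05 for Cbr2 to 1.44 for Scgb3a2. KO replicate 3 lay below all 3 Het metastases for 8 of the 9 genes, all but Hp, beside 34.9% of all genes, and KO replicate 2 did so for 6, beside 33%. KO replicate 1 was the highest metastasis for 5 of the 9 genes (Scgb3a1, Scgb3a2, Aldh1a1, Tppp3 and Hp), and therefore above all Het metastases, beside 22.1% of all genes for the first and 29.5% for the second. For Tppp3 (276 against 275.7) and Hp (2168 against 2048), Het replicate 1 was almost as high. Scgb1a1 and Foxj1 were highest in Het replicate 1, beside 17.6% of all genes, and Cyp2f2 and Cbr2 in Het replicate 2, beside 17.8%. Without Het replicate 1, 6 of the 9 genes were lowest in KO replicate 2 (17.3% of all genes), 8 had KO replicate 3 below the other Het arrays (41.2%) and 7 were highest in KO replicate 1 (25%). Aldh1a1 and Tppp3 had their lowest value in KO replicate 3 and not in KO replicate 2, beside 23% of all genes. Together with Foxj1 they averaged 0.56, -0.21 and -0.70 in the KO replicates.

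The alveolar genes were ordered among the KO metastases as Aldh1a1, Tppp3 and Hp were, with KO replicate 1 highest and KO replicate 3 lowest, and not as the mean of the 5 secretory genes. The alveolar type 2 list had 11 of its 12 genes on the array and all 11 tested, and its summed signal ran from 17775 to 86006 in KO and from 30072 to 43949 in Het metastases. Centred in the same way, it stood at 1.51, 0.36 and -1.29 in KO replicates 1, 2 and 3, so KO replicate 3 was lowest, and 0 of its 11 genes were lowest in KO replicate 2. Sftpc was at 18126.5, 18596 and 5981 in these metastases. The upper Sftpc values, like those of Scgb1a1, lie near the top of the measured range, so no fold is given for it. In KO replicate 2 the Scgb1a1 signal was 0.39 times and the Scgb3a2 signal 0.44 times that of KO replicate 3. The Scgb1a1 values in this ratio, 4054 and 10389, are not among its upper ones. The alveolar type 1 list, with 10 of 12 genes on the array, stood at 0.68, 0.45 and -0.45 and had summed signals of 6828 to 17241 in KO and 6535 to 9836 in Het metastases. The endothelial list, with 13 of 13, stood at 0.73, 0.33 and -0.52, with sums of 2322 to 6071 and 2513 to 4563. No gene of these 3 lists had a signal of 0. In KO replicate 1 the alveolar lists and the mean of the 5 secretory genes were high, but Cbr2 lay below all Het arrays there. In KO replicate 2 the 5 secretory genes were low while the alveolar and endothelial lists were above their mean. The 18 further club and secretory genes stood at 0.56, -0.13 and -0.43 in KO replicates 1, 2 and 3. The first value includes Aox3 and Foxa2, which passed the filter only through KO replicate 1. Like the alveolar lists, these genes had their lowest mean in KO replicate 3. The type 1 list was lowest there only narrowly, at -0.45 against -0.43 and -0.40 in Het replicates 2 and 3. These are single metastases, so the contrast is a description, and the part of lung tissue content in the airway values was not tested.

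**Figure D3:**
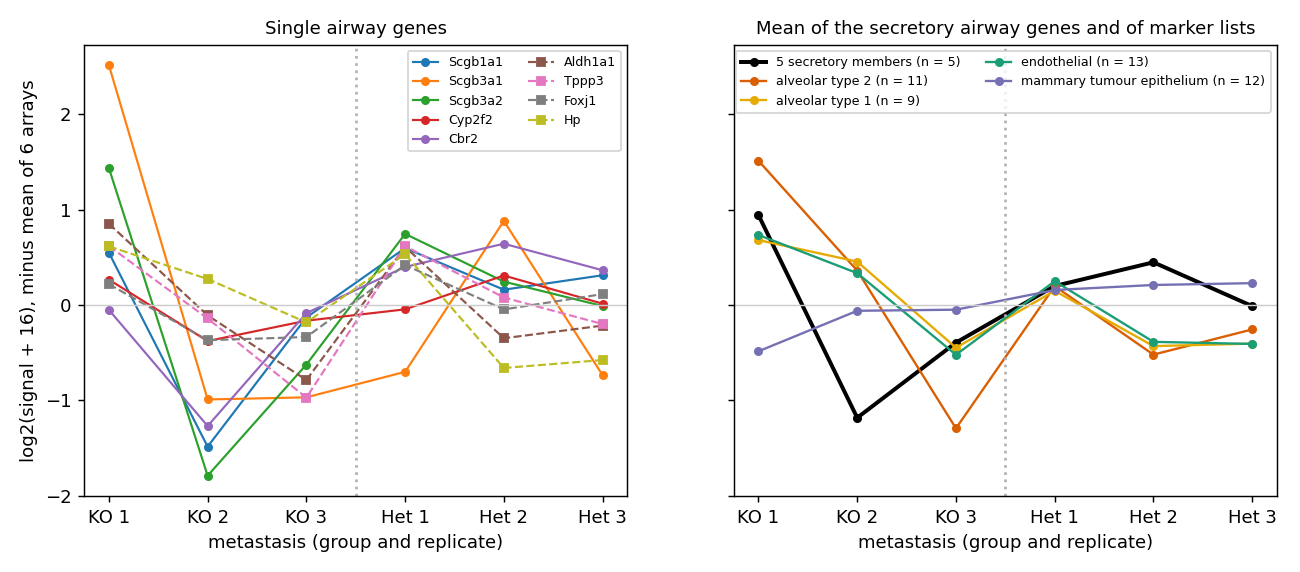
Log2(signal + 16) minus the mean of the 6 arrays, for each airway gene (left; circles and solid lines for the 5 secretory genes, squares and dashed lines for the others) and as means of the 5 secretory genes and of 4 marker lists (right), in each metastasis. In KO replicate 2 the secretory mean is at -1.18 while the alveolar type 2 mean is at 0.36; lines only join the points of a gene or list.

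The 9 genes did not share 1 profile. Likeness was measured as the root mean square distance between centred log2 profiles over the 6 arrays, a measure that favours genes of similar range. Aldh1a1 and Tppp3 were the closest pair, at 0.21. Scgb1a1 was 0.34 from Cbr2 and 0.46 from Scgb3a2. Scgb3a1 was at least 0.91 from each of the other 8 genes. Hp was 0.87 from Scgb1a1 and 0.37 from Aldh1a1. These arrays share a scaling, and the distances carry no test.

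Among the 7949 other genes, those nearest to Scgb1a1 were Smoc1 at a distance of 0.25, Slc25a23 at 0.28, the clock gene Per1 at 0.29, the paraoxonase Pon1 at 0.31 and Hmgn3 at 0.32, against a median of 0.73 over all of them. Smoc1, a secreted calcium-binding protein, had signals of 786.2, 244.4 and 579.4 in the KO and 632.6, 721.9 and 682 in the Het replicates. It too was lowest in KO replicate 2, which follows from its choice by nearness to Scgb1a1 and is no separate result. The genes nearest to Tppp3 were Arhgef25 at 0.18, Nol3 at 0.18, Cyp4b1 at 0.19, Zbtb11os1 at 0.20 and Igfbp6 at 0.21, against a median of 0.57. Cyp4b1, a lung cytochrome P450 that belongs to the list of further club cell genes, had signals of 720.9, 447 and 257.8 in the KO and 854.2, 375.6 and 406.8 in the Het replicates. Those nearest to Hp were the transcription factor Klf4 at 0.08, the endothelial adhesion molecule Icam2 at 0.10, Tnfrsf1b at 0.13, the caveolin Cav1 at 0.15 and Sema7a at 0.15, against a median of 0.55. Klf4 had 570.6, 401.4 and 339.8 in the KO and 490.0, 217.3 and 225.6 in the Het replicates. Its high value in Het replicate 1 likewise follows from its choice by nearness to Hp.

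A further 39 genes of club, goblet and other secretory airway cells were listed, of which 34 were on the array and 18 were tested. Their median log2 difference was -0.21, with 11 lower and 7 higher in KO metastases. It turned to 0.08, with 9 lower, without KO replicate 3. None passed the test, and the arrays did not overlap for 2 of the 18 genes with KO lower, beside 10.5% of all genes, and for 2 with KO higher, beside 5.83%. Aox3, an aldehyde oxidase, had signals of 824.5, 93.3 and 39.8 in the KO and 146.6, 40.5 and 63.2 in the Het replicates. Foxa2, a transcription factor of airway and alveolar epithelium, had 436.3, 92.3 and 36.9 and then 94.9, 74.1 and 93.9. Fmo2, the lung flavin monooxygenase, had 880.6, 282.8 and 201.3 and then 190.1, 156.6 and 172.1. KO replicate 1 was the highest array for each of these 3, and the KO arrays of Fmo2 lay above all Het arrays (log2 difference 1.04, SE 0.78, limma adjusted p = 0.9999). Aox3 and Foxa2 were dim on the other arrays and passed the filter only through KO replicate 1. Their peak there was thus a condition of being tested.

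Retnla, a secreted protein of airway epithelium and macrophages, had signals of 1275, 550.9 and 181 in the KO and 1537, 953.2 and 887.2 in the Het replicates. Pigr, the receptor that carries IgA across epithelia, ran the other way among the KO metastases, at 191.1, 384.2 and 1132 beside 652.3, 893 and 1224 in the Het replicates. Foxa1, a forkhead factor of airway and also of mammary epithelium, had 246.7, 140.7 and 207.7 and then 96.7, 61.5 and 95.7. Its arrays did not overlap, with KO higher (log2 difference 1.08, SE 0.38; limma adjusted p = 0.9999), unlike Scgb1a1 and Cbr2, whose means were lower in KO. The other 2 genes whose arrays did not overlap with KO lower were Dcxr, at 552.2, 460.5 and 797.1 beside 1018, 951.2 and 1164, and Mgst1, at 9376, 10479 and 10243 beside 11632, 13630.1 and 13491; they are named because of their values. The goblet cell genes Muc5ac, Muc5b, Agr2 and Spdef and the lung transcription factor gene Nkx2-1 were among the 16 that fell below the filter.

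**Figure D4:**
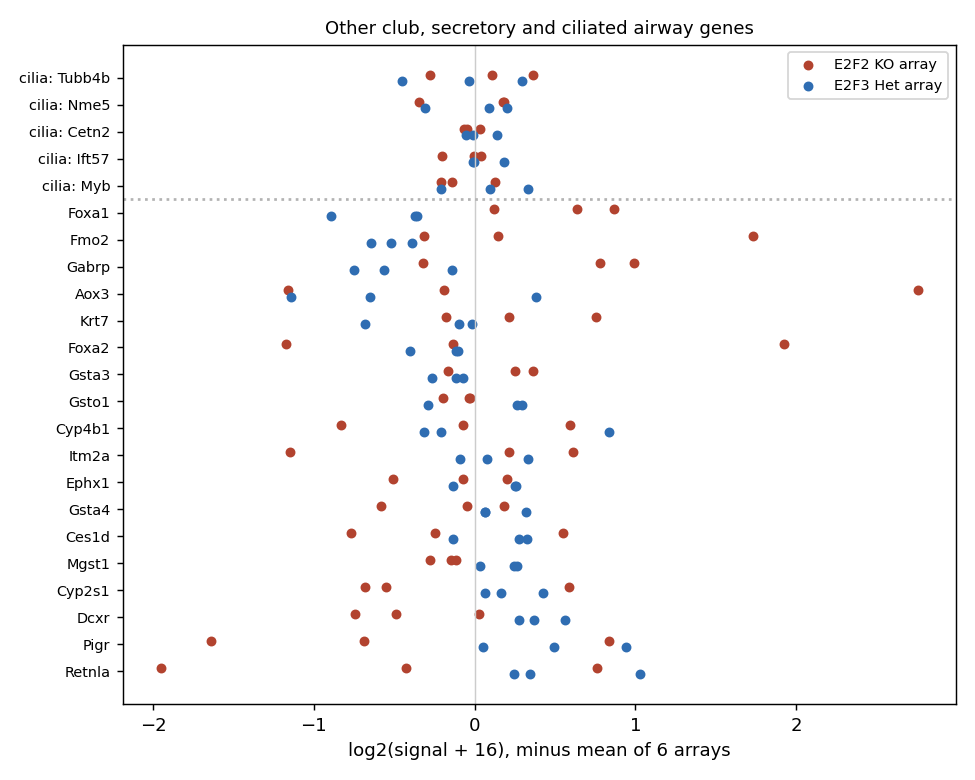
Log2(signal + 16) minus the mean of the 6 arrays for the 18 further club and secretory genes and, above the dotted line, the 5 ciliated cell genes that passed the filter, with 1 point per array. Aox3, Foxa2 and Fmo2 each have 1 KO point far to the right, which is KO replicate 1, and the KO and Het points of Foxa1 do not overlap.

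Of 49 further genes of ciliated cells and motile cilia, 19 were on the array and 5 were tested. The other 14, among them the dynein genes Dnah5 and Dnah11 and the tektins Tekt1 and Tekt2, were below the filter, as Foxj1 was. The 5 tested were Myb, Nme5, Cetn2, Tubb4b and Ift57, with a median log2 difference of -0.06, 3 lower and 2 higher in KO, and a median range of 0.54 over the 6 arrays, beside 0.63 for all genes. Tubb4b, a tubulin of cilia and of dividing cells, had signals of 2829.7, 4408.5 and 3694 in the KO and 4201, 2507 and 3339 in the Het replicates. Several of the 5 are also expressed outside ciliated cells, and none had a range of 2 or more on the log2 scale, whereas 3 of the 9 airway genes did, beside 4.34% of all genes.

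Markers of other cell types were read beside Hp. The neutrophil list, with 11 of 13 genes on the array and 5 tested, stood at -0.73, 1.09 and 0.39 in KO replicates 1, 2 and 3. Its summed signal ran from 13887 to 23623 in KO and from 16435 to 17992 in Het metastases. Most of that sum was Lcn2, which varied little, from 12348 to 14822, and is also in the acute phase list. S100a8, a calcium-binding protein abundant in neutrophils, had 644.2, 4994 and 3088 in the KO replicates, the order opposite to that of Hp for KO replicate 1. The acute phase list, with 12 of 13 genes on the array and 8 tested, stood at -1.49, -0.28 and 0.25, with sums of 17454 to 40759 in KO and 47593 to 49830 in Het metastases. Saa1, an acute phase serum amyloid, had 1342, 15972 and 10965 in the KO and 16818, 14467 and 16920.2 in the Het replicates. In KO replicate 1, where Hp was highest, both lists had their lowest mean. For the neutrophil list this was narrow, at -0.73 against -0.62 in Het replicate 2, and S100a9 was lower in Het replicate 2 (417.8 against 522.4). In Het replicates 1, 2 and 3 the neutrophil list stood at 0.16, -0.62 and -0.29. Hp, centred in the same way, stood at 0.53, -0.66 and -0.58 there, the same order. Of the basal airway and neuroendocrine genes, 9 of 11 were on the array and 3, Krt5, Krt14 and Trp63, were tested; they also mark mammary basal cells, and Krt5 had 44, 1907 and 958.6 in the KO replicates. The mammary tumour list, with 13 of 13 genes on the array, had sums of 81049 to 90127 in KO and 90998 to 98519 in Het metastases, and stood at -0.49, -0.06 and -0.05 in the KO replicates. Its mean was lowest in KO replicate 1, where the alveolar lists and the mean of the 5 secretory airway genes were high. Its genes did not all share this, and of the 12 tested, 2 were highest in KO replicate 1. Krt8 had signals of 12113, 11425 and 9660 in the KO replicates and was highest of all arrays in KO replicate 1. Csn2 had 17785, 12671 and 17414 in the KO replicates. Csn3 was lowest of all arrays in KO replicate 1, at 15725. The part of this tumour list in the airway values was not tested.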

How the data were processed

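The deposited values were intensities on a linear scale, 1 per probe set and array. MAS5 and Affymetrix Expression Console are named in the submitters' processing notes, with versions not given in the sources used here. The trimmed means are equal over arrays, so a scaling by the authors is in the values. Genes were named from the platform annotation, through probe sets with 1 symbol (20380 of 22690).

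Signals were transformed to log2(signal + 16), a scale on which fold changes of dim genes are understated. The dimmest 40% of probe sets were left out, which left 13575 for limma 3.58.1 under R 4.3.3 (lmFit, eBayes with a trend, Benjamini-Hochberg adjustment, threshold 0.05). The 3 Het arrays were averaged into 1 sample, whose spread is taken to be that of the KO group. Separate animals are not stated in the labels, so p-values measure the spread between these samples, which may be technical. The number of arrays limits the precision. Per gene, the brightest probe set was used (7957 genes). The procedure was run on simulated data. There the arrays were drawn as independent, unlike metastases that probably come from a single mouse. Recovery of changes was required only with each array as a sample, so what the main fit can detect was not shown.

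Named genes were all 9 members, up to 6 per list of further airway genes with no overlap of arrays or a range of at least 2, up to 3 of the brightest per marker list, and the 5 nearest profiles of Scgb1a1, Tppp3 and Hp. Members and lists were chosen with earlier results of these data known. Protein sequences were not used here.

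Alternatives changed the unit of replication, pseudocount, filter, normalization and the arrays included.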

Additional observations from a re-analysis of the deposited data

How the results depend on the processing

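The alternatives covered each array as a sample, the title number as a random block, pseudocounts of 1 and 64, no filter or 60% of probe sets left out, quantile normalization, the mean over a gene's probe sets and leaving out each array. No probe set passed in any of the 13 fits beside the main one with limma (0 in each); unadjusted p under 0.05 was reached by 301 in the comparison as reported, 1394 with each array as a sample and 162 to 944 when 1 array was left out. The median difference of the airway genes ran from -0.76 to -0.01 without single arrays, and their median range over arrays from 1.43 to 1.77. Without single arrays, signs turned for Scgb3a1 (range -0.79 to 0.96; -0.79 without KO replicate 1), Scgb3a2 (-1.53 to 0.079; the latter without KO replicate 2), Aldh1a1 (-0.46 to 0.36; 0.018, 0.36 and 0.27 without KO replicate 2, KO replicate 3 and Het replicate 1), Tppp3 (-0.72 to 0.073; the latter without KO replicate 3), the median of the further club genes (-0.37 to 0.076; the latter without KO replicate 3) and that of the ciliated list (-0.080 to 0.0017; the latter without Het replicate 3). The cause was not tested, beyond the removal of an array. The sign held in all alternatives run for Scgb1a1 (-1.16 to -0.15), Cyp2f2 (-0.36 to -0.04), Cbr2 (-1.15 to -0.54) and Hp (0.26 to 0.85). For a single member, only the pseudocount, quantile normalization or leaving out an array could turn the sign. The other alternatives leave its difference unchanged by construction, since each member has 1 probe set and the Het arrays share 1 title number. Counts without Het replicate 1 were chosen after seeing the data. No paired analysis was possible because the replicate numbers follow the order of deposit and pair no samples. Foxj1 has a value only with no filter, and Tppp3 has none with 60% left out. Dim signals, as of Foxj1, were not set against background.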
